A study of Mus musculus with 18 samples.

Results

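Guanylate-binding proteins (GBPs) are large GTPases encoded by the Gbp genes, and Gbp2, Gbp3, Gbp4, Gbp5, Gbp6, Gbp7, Gbp8, Gbp9, Gbp10 and Gbp11 were followed here across a study of mouse macrophages. These 10 genes were chosen by symbol among the 21380 gene identifiers of the deposited table. One further row of the family, Gbp2b, is a close copy outside the 10 and is described in the closing section.

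GBPs are made in most cells after exposure to interferons. They assemble on the vacuoles of intracellular parasites and bacteria and on bacteria free in the cytosol, and they help to open these compartments and to set off inflammasomes. Their genes respond to interferon gamma (IFN-gamma) through DNA elements that include gamma-activated sites (GAS) and interferon-stimulated response elements (ISRE), the second bound by interferon regulatory factors.

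The libraries came from bone marrow-derived macrophages of Ldha knockout mice (KO) and of wild-type mice (WT), grown for 7 days with 30 ng/mL macrophage colony-stimulating factor. Ldha encodes the A subunit of lactate dehydrogenase. The groups were KO and WT macrophages with IFN-gamma for 24 h, KO and WT macrophages with interleukin 4 (IL-4) for 24 h, and KO and WT macrophages left untreated. Each group held 3 libraries, and each of the 6 animals (3 KO and 3 WT) gave 1 library to every treatment, 18 libraries in all. The series title calls the loss macrophage-specific. The sources used here do not state the knockout allele, the promoter of any Cre, the cytokine doses, or the strain, age and sex of the animals. The study asked how loss of Ldha alters macrophages in the resting state and under a classical or an alternative activating signal.

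Between 9.77 and 49.5 M reads were assigned to genes per library, with a median of 30.9 M. Ldha averaged 25.6% of its WT level in KO libraries with IFN-gamma, 17.5% with IL-4 and 20.0% untreated. Lyz2, which encodes lysozyme M, stood at 0.0866%, 0.133% and 0.124% of its WT level in the same 3 comparisons. KO and WT libraries thus differed in the transcripts of both genes, and the part of each in the KO against WT results below was not tested. All 8 macrophage markers were in the table. Their summed normalized count was 216982 to 232894 in KO and 263086 to 291235 in WT libraries with IFN-gamma, 191771 to 214137 in KO and 236413 to 256448 in WT libraries with IL-4, and 245424 to 274762 in KO and 254595 to 266398 in WT untreated libraries. The summed count of the 6 of 8 fibroblast markers in the table was 195 to 738 in KO and 136 to 230 in WT libraries with IFN-gamma, 403 to 1232 in KO and 185 to 676 in WT libraries with IL-4, and 346 to 1268 in KO and 154 to 395 in WT untreated libraries. None of these 6 was at 0 in a whole group. The 3 of 6 dendritic cell markers in the table (Zbtb46, Ccr7 and Xcr1) summed to 379 to 516 in KO and 741 to 1003 in WT libraries with IFN-gamma, 102 to 124 in KO and 21.9 to 47.0 in WT libraries with IL-4, and 10.6 to 24.3 in KO and 3.90 to 6.59 in WT untreated libraries. The 3 of 5 B cell markers in the table summed to 20.2 to 29.6 in KO and 7.89 to 13.0 in WT libraries with IFN-gamma, 30.2 to 51.2 in KO and 13.1 to 25.1 in WT libraries with IL-4, and 39.8 to 60.6 in KO and 22.4 to 37.9 in WT untreated libraries. The summed markers of neutrophils (3 of 6 in the table), T and NK cells (1 of 6) and erythroid cells (1 of 4) stayed at or below 14.7 in every library. Single markers did not all follow their sum. In KO against WT with IFN-gamma, 2 of 8 macrophage markers were called higher and 4 lower (limma, adjusted p under 0.05). Of the 3 dendritic cell markers, 1 was called higher and 1 lower. Over all genes tested, 14.3% were called higher and 13.6% lower. Xcr1 averaged 169 in KO and 788 in WT with IFN-gamma, and Ccr7 averaged 258 in KO and 103 in WT. The part of these cell types in the results below was not tested. In bulk libraries such as these, fewer cells making a transcript and less of it per cell cannot be told apart.

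The 10 genes lie in 2 clusters of GRCm38. On chromosome 3, plus strand, stand Gbp5 (ENSMUSG00000105504.4, 142493978 to 142522344), Gbp7 (ENSMUSG00000040253.15, 142530342 to 142550149), Gbp3 (ENSMUSG00000028268.14, 142560026 to 142573209) and Gbp2 (ENSMUSG00000028270.12, 142620602 to 142638008). On chromosome 5, minus strand, stand Gbp8 (ENSMUSG00000034438.16, 105014150 to 105139540), Gbp9 (ENSMUSG00000029298.15, 105077630 to 105139539), Gbp4 (ENSMUSG00000079363.7, 105115767 to 105139586), Gbp10 (ENSMUSG00000105096.1, 105215699 to 105239533), Gbp6 (ENSMUSG00000104713.4, 105270702 to 105293698) and Gbp11 (ENSMUSG00000092021.8, 105323042 to 105346472). The deposited table annotates Gbp11 as a polymorphic pseudogene and the other members as protein-coding.

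Close copies can share reads, and this limits some of the members. Of all 50-base words in the transcripts of Gbp10, 76.2% also occurred in another Gbp gene, mostly Gbp6, and for Gbp6 the share was 49.9%, mostly Gbp10. A further annotated gene, Gm43302, not analysed here, covers 46.3% of the exon bases of Gbp10 and 29.0% of those of Gbp6 on the same strand. The counts of Gbp6 and Gbp10 are therefore uncertain. Shares were 19.2% for Gbp11, 18.1% for Gbp8, 8.05% for Gbp9 and 7.53% for Gbp4. They were at most 3.75% for the chromosome 3 members, and no such word of Gbp5 was found elsewhere in the family. Gbp8, Gbp9 and Gbp4 overlap on one strand and share 60 or 61 exon bases, and Gm43802, not analysed here, covers 11.3% of the exon bases of Gbp7.

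Upstream sequence is shown because all 10 genes moved together with IFN-gamma. RefSeq promoters (GRCm38.p6) were at hand for 4 of the 10 members, all on chromosome 3, and the 250 bases before the annotated start are printed from 5′ to 3′ on the plus strand. Capitals mark matches, on either strand, to the ISRE core, which is GAAA, any 2 bases and GAAA again, and to the GAS core TTCNNNGAA. On the printed strand a minus-strand ISRE core reads as its reverse complement, beginning and ending in TTTC. The windows are chr3:142620413-142620662 for Gbp2, chr3:142559794-142560043 for the first of 2 Gbp3 starts, chr3:142496684-142496933 for Gbp5 and chr3:142530086-142530335 for Gbp7.
Gbp2: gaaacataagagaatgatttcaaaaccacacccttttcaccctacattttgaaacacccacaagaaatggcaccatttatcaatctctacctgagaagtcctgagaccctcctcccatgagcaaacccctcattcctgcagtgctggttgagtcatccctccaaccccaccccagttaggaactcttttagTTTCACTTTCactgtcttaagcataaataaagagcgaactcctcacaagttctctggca
Gbp3: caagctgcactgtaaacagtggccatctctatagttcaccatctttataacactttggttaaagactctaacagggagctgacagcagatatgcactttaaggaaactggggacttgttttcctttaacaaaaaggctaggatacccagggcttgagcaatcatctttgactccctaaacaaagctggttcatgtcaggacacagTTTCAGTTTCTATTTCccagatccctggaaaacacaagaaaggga
Gbp5: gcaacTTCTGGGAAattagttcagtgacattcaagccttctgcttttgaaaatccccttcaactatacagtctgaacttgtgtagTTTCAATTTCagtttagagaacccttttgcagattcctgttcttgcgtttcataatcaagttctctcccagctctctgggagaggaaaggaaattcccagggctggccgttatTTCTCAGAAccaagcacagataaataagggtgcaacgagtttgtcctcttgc
Gbp7: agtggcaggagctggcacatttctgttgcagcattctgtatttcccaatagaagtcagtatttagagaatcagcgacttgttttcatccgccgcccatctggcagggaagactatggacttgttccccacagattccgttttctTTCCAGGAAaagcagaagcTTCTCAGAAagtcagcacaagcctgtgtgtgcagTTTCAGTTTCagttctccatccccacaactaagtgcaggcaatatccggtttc
The ISRE core began 59 bases before the start in Gbp2, 165 in Gbp5 and 53 in Gbp7, and in Gbp3 a pair of overlapping cores began 45 and 39 bases before it. The GAS core was found at 245 and 52 bases before the start in Gbp5 and at 106 and 87 in Gbp7. It was not found in the windows of Gbp2 or Gbp3, and the second Gbp3 start had neither motif. Among 32851 RefSeq mouse promoters of the same length (250 bases before to 50 after the start), 3.44% held the ISRE core, 8.30% the GAS core and 0.454% both. These are matches of letters and no measure of binding.

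IFN-gamma raised all 10 genes in both genotypes. Gbp2, which coats the vacuoles of Toxoplasma in mouse cells, was the most abundant. It had 222280, 234453 and 223973 normalized counts (read counts divided by 1 size factor per library) in the KO libraries with IFN-gamma, against 323, 372 and 436 in the untreated KO libraries. In WT it had 227178, 248587 and 227598 with IFN-gamma, against 537, 429 and 449 untreated. The lowest treated library lay far above the highest untreated one in each genotype. The log2 fold change was 9.24 ± 0.17 in KO and 8.96 ± 0.17 in WT (SE, limma, adjusted p = 1.42e-16 and 2.41e-16).

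**Figure D1:**
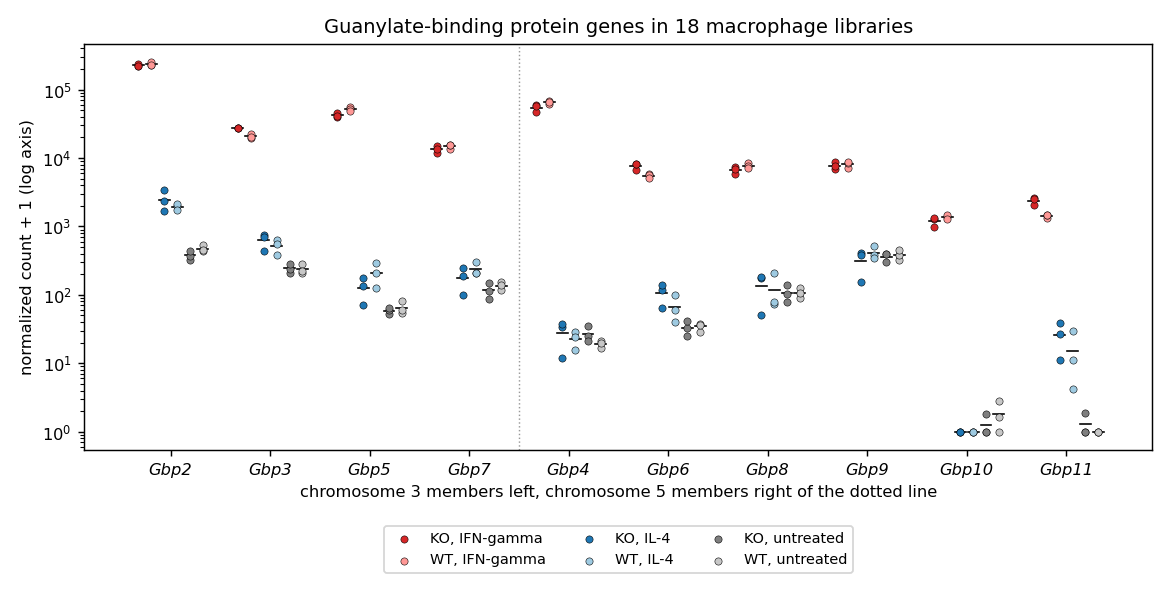
Normalized count plus 1, on a log axis, of the 10 Gbp genes in 18 libraries, as points for single libraries and bars for group means of 3. In every gene the 6 libraries with IFN-gamma lie above the other 12, Gbp2 is highest at 222280 to 248587, and Gbp10 and Gbp11 are at 0 to 1.80 without treatment.

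The rise was called for 10 of 10 members in KO, where 28.3% of the 14288 genes tested were called higher (adjusted p under 0.05), and for 10 of 10 in WT, where 31.4% were. The median log2 change of the members was 8.56 in KO and 8.15 in WT, and that of all genes tested was -0.013 and -0.011. The medians of the members were the same with Gbp10 and Gbp11 at the count ratios or bound given below. Over the other 8 members the change ran from 4.42 for Gbp9 to 11.00 for Gbp4 in KO, and from 4.43 for Gbp9 to 11.73 for Gbp4 in WT. No alternative changed a call of any member in these comparisons.

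Gbp4 had the largest fitted change of those 8 genes in both genotypes. It had 47546, 58608 and 56898 normalized counts in KO libraries with IFN-gamma, against 24.4, 19.9 and 33.5 in untreated KO libraries. In WT it had 60604, 68091 and 66319 with IFN-gamma, against 15.6, 19.8 and 19.1 untreated. Gbp9, at the other end, was already present without treatment, at 362 ± 50.9 in KO and 381 ± 64.1 in WT (SD, n = 3), and reached 7739 ± 918 in KO and 8203 ± 866 in WT with IFN-gamma.

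Gbp5, linked in mouse macrophages to NLRP3 and AIM2 inflammasomes, changed by 9.49 ± 0.28 in KO and 9.66 ± 0.28 in WT. Gbp7, which in mouse macrophages helps to bring NADPH oxidase to bacterial compartments, changed by 6.87 ± 0.25 and 6.77 ± 0.25. Gbp3 changed by 6.83 ± 0.19 in KO and 6.46 ± 0.19 in WT, Gbp6 by 7.88 ± 0.29 and 7.33 ± 0.29, and Gbp8 by 6.01 ± 0.41 and 6.19 ± 0.41. All of these log2 changes carry the SE of limma, and the highest adjusted p among all 10 members was 7.71e-10, for Gbp8 in KO.

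Gbp10 and Gbp11 were close to absent from untreated cells, so their folds rest on very few reads. Gbp10, linked like Gbp6 to the control of Listeria and mycobacteria in mouse macrophages, had 3306 reads over the 3 KO libraries with IFN-gamma, against 1 read over the untreated KO libraries, a ratio of normalized levels of 4086 (95% exact counting interval 733 to 161426). In WT it had 3765 reads against 3, a ratio of 1665 (569 to 8078). Gbp11 had 6605 reads against 1 in KO, a ratio of 8163 (1465 to 322463). In WT it had 3869 reads with IFN-gamma and 0 in untreated libraries, so it was at least 1711-fold higher (against a floor of 3 counts over the group). These intervals and floors cover counting error only.

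With IFN-gamma the 10 genes together held 1.05 to 1.17% of the normalized counts of KO libraries and 1.16 to 1.24% of those of WT libraries, ranges that overlap. With IL-4 they held 0.00839 to 0.0174% in KO and 0.00958 to 0.0127% in WT, and untreated 0.00401 to 0.00557% in KO and 0.00469 to 0.00549% in WT. Gbp2 alone made up 57.4 to 59.9% of the family's counts in KO and 56.5 to 57.8% in WT libraries with IFN-gamma, against 28.0 to 29.4% in KO and 30.5 to 34.8% in WT untreated libraries.

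Per kilobase of exon, Gbp2 stood at 90184 ± 2621 normalized counts in KO and 93185 ± 4865 in WT with IFN-gamma (SD, n = 3). The next genes were Gbp3 at 8412 ± 63.9, Gbp4 at 7253 ± 795 and Gbp5 at 6304 ± 396 in KO. In WT the next was Gbp4 at 8674 ± 522, then Gbp5 at 7821 ± 607 and Gbp3 at 6335 ± 431. By the mean per kilobase, Gbp3 thus came before Gbp4 and Gbp5 in KO and after them in WT. The lowest value per kilobase with IFN-gamma was that of Gbp10, at 306 ± 46.4 in KO and 353 ± 21.9 in WT. Its count is uncertain, since 76.2% of its 50-base words also occur in another Gbp gene. The division used all of its exon bases, and the part of shared sequence in its rank was not tested.

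Without treatment the order was different. Gbp2 led at 150 ± 22.5 normalized counts per kilobase in KO and 188 ± 22.7 in WT. Gbp3 followed at 74.2 ± 11.6 in KO and 72.0 ± 11.9 in WT, and Gbp9 stood beside it at 70.0 ± 9.84 in KO and 73.6 ± 12.4 in WT. Gbp3 and Gbp9 did not differ beyond their spread. Gbp4, among the 4 highest with IFN-gamma, was at 3.46 ± 0.92 in KO and 2.43 ± 0.30 in WT.

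IL-4 raised part of the family, and by far less. In KO, 5 of 10 members were called higher and 0 lower, where 15.8% of all genes tested were called higher and 14.5% lower. In WT, 6 of 10 were called higher and 0 lower, where 16.3% were called higher and 14% lower. Leaving out Gbp10 and taking Gbp11 at its count ratio or bound, the median log2 change of the other 9 was 1.03 in KO and 0.87 in WT, and that of all genes tested was 0.00076 and -0.012.

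Gbp2 had 1698, 3363 and 2340 normalized counts in KO libraries with IL-4, a log2 change of 2.66 ± 0.17 over the untreated KO libraries (limma, adjusted p = 2.68e-09). In WT it had 1983, 2098 and 1749, a change of 2.04 ± 0.17 (adjusted p = 7.66e-08). The treated libraries lay above all untreated libraries of their genotype and below all libraries with IFN-gamma. Gbp3 had 429, 747 and 691 counts in KO libraries with IL-4, against 208, 236 and 283 untreated, and 631, 551 and 383 in WT libraries with IL-4, against 280, 207 and 219 untreated. Its changes were 1.33 ± 0.19 in KO and 1.13 ± 0.19 in WT.

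**Figure D2:**
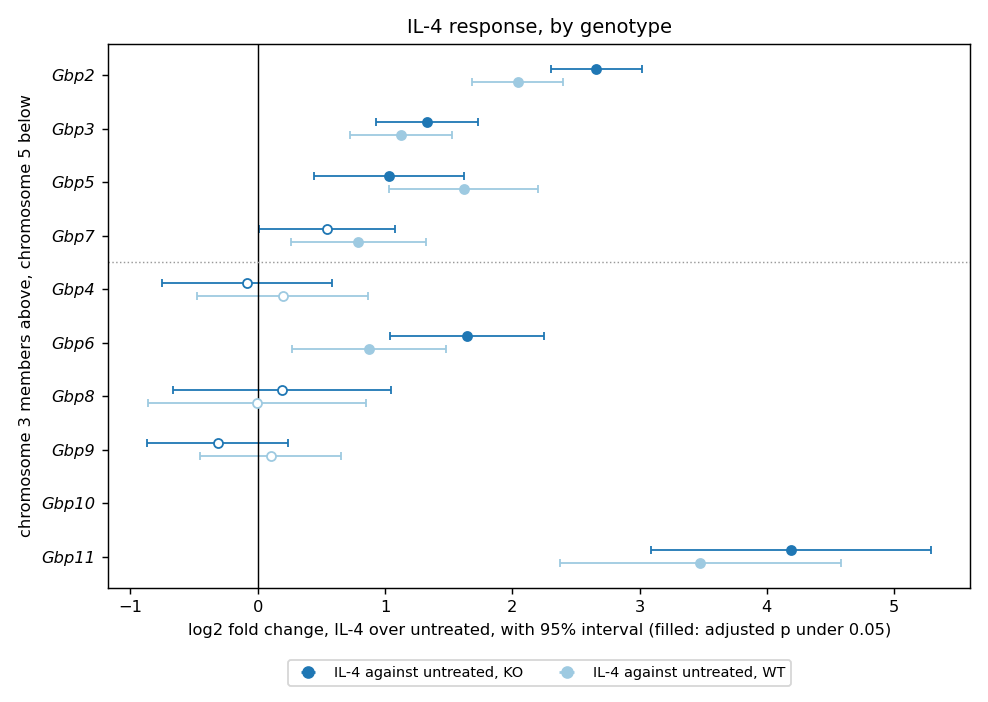
Log2 fold change of IL-4 over untreated for each Gbp gene, with the 95% interval from limma, in KO and WT; filled points have an adjusted p under 0.05, and Gbp10, at 0 in all 6 IL-4 libraries, has none. Gbp2, Gbp3, Gbp5, Gbp6 and Gbp11 are filled in both genotypes, Gbp7 in WT alone, and Gbp4, Gbp8 and Gbp9 in neither.

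Gbp11 came up from near 0 with IL-4. It had 10.1, 26.1 and 37.6 normalized counts in KO libraries with IL-4, against 0.905, 0 and 0 untreated, a ratio of 93.9 (exact counting interval 16.5 to 3748). In WT it had 28.4, 3.28 and 10.003 with IL-4 and 0 in each untreated library, so it was at least 18.6-fold higher. The lowest IL-4 library lay above the highest untreated library in both genotypes. In WT that lowest value, 3.28, was 1 read in replicate 2, the library with the fewest reads (9.77 M). Gbp10 was at 0 in all 6 IL-4 libraries, where 3 counts over the group would be 0.834 normalized counts in KO and 1.06 in WT, and no IL-4 fold is given for it.

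Gbp5 had 69.5, 133 and 177 counts in KO libraries with IL-4, against 50.7, 58.0 and 62.9 untreated, and 289, 207 and 126 in WT libraries with IL-4, against 79.9, 53.2 and 59.3 untreated. The changes were 1.03 ± 0.28 in KO (limma, adjusted p = 0.00876) and 1.62 ± 0.28 in WT (adjusted p = 0.000244). The KO call was lost without KO IL-4 replicate 3 (0.74, adjusted p = 0.0522). Gbp6 changed by 1.64 ± 0.29 in KO (adjusted p = 0.00025) and by 0.87 ± 0.29 in WT (adjusted p = 0.0284).

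Gbp7 changed by 0.54 ± 0.25 in KO, which was not called (limma, adjusted p = 0.12), and by 0.79 ± 0.25 in WT (adjusted p = 0.0244). The KO value passed with the animal as a fixed replicate block (adjusted p = 0.021), with DESeq2 (0.0323) and without KO IL-4 replicate 1 (0.92, 0.00263), and not with edgeR or with the animal as a random block. The WT calls of Gbp6 and Gbp7 were not stable. Gbp6 was lost with the 6 libraries of the contrast alone (0.87, adjusted p = 0.121), without WT IL-4 replicate 1 (0.53, adjusted p = 0.141) or 3, and without untreated WT replicate 2 or 3. Gbp7 was lost without WT IL-4 replicate 1 (0.61, adjusted p = 0.0947) or untreated WT replicate 2 or 3. Gbp4 changed with IL-4 by -0.09 (95% interval -0.76 to 0.58) in KO and 0.20 (-0.47 to 0.86) in WT. Gbp8 changed by 0.19 (-0.67 to 1.05) in KO and 0.00 (-0.86 to 0.85) in WT, and Gbp9 by -0.32 (-0.87 to 0.24) in KO and 0.10 (-0.45 to 0.65) in WT.

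The main question of the study was whether KO and WT macrophages differ. With IFN-gamma, 0 of 10 members passed in KO against WT, where 27.9% of all genes tested were called, and 1, Gbp3, had an unadjusted p under 0.05 (limma). DESeq2 called 0 of 10 and edgeR 2 of 10. Fitted to the 6 IFN-gamma libraries alone, limma called 3 of 10. The share of all genes called by these other fits is not given here. Their counts can therefore not be told from the share of any gene. The fit to all 18 libraries takes the spread of each gene from all groups. The median spread of the members was larger without IFN-gamma than with it, so their SE from that fit need not hold for the IFN-gamma libraries. In 5 of the 10 the libraries of KO and WT did not overlap, where this held for 42.6% of all genes tested. The median log2 change of the members was -0.12, beside 0.0088 over all genes.

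Gbp3, Gbp6 and Gbp11 had their 3 KO libraries above the 3 WT libraries. Gbp3 had 27614, 27552 and 27226 counts in KO and 19835, 22306 and 19907 in WT, a log2 difference of 0.41 ± 0.19 (adjusted p = 0.12, limma). Gbp6 had 6635, 8269 and 8169 in KO and 5819, 5642 and 5151 in WT, a difference of 0.47 ± 0.29 (adjusted p = 0.245). Gbp11 had 2065, 2584 and 2486 in KO and 1313, 1463 and 1455 in WT, a difference of 0.75 ± 0.52 (adjusted p = 0.314).

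These are the genes that other fits called. With the 6 IFN-gamma libraries alone the adjusted p was 0.0111 for Gbp3, 0.0182 for Gbp6 and 0.00349 for Gbp11, and edgeR gave 0.0432 for Gbp6 and 0.0123 for Gbp11. In the fit to all 18 libraries the spread of each member, these genes among them, includes its low counts without IFN-gamma. Gbp6 and Gbp10 share long stretches of sequence, and their summed count was 8876 ± 1094 in KO and 6903 ± 414 in WT (SD, n = 3). The lowest KO library, at 7614, was above the highest WT library, at 7191. Gbp6 alone averaged 7691 in KO and 5537 in WT, so the sum largely repeats its difference. Any reads left uncounted or given to Gm43302 are not in the sum, so it does not settle the effect of shared reads.

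Gbp4 and Gbp5 lay the other way. Gbp4 averaged 54351 ± 5955 in KO and 65005 ± 3913 in WT (-0.26 ± 0.32, adjusted p = 0.585, limma), and Gbp5 had 39414, 44636 and 41463 in KO and 56265, 51135 and 48319 in WT (-0.31 ± 0.28, adjusted p = 0.444). In both genes every KO library was below every WT library. For Gbp2 the libraries overlapped and the difference was -0.05 (95% interval -0.40 to 0.31). Gbp7, Gbp8, Gbp9 and Gbp10 also overlapped, at differences of -0.15, -0.21, -0.09 and -0.21.

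**Figure D3:**
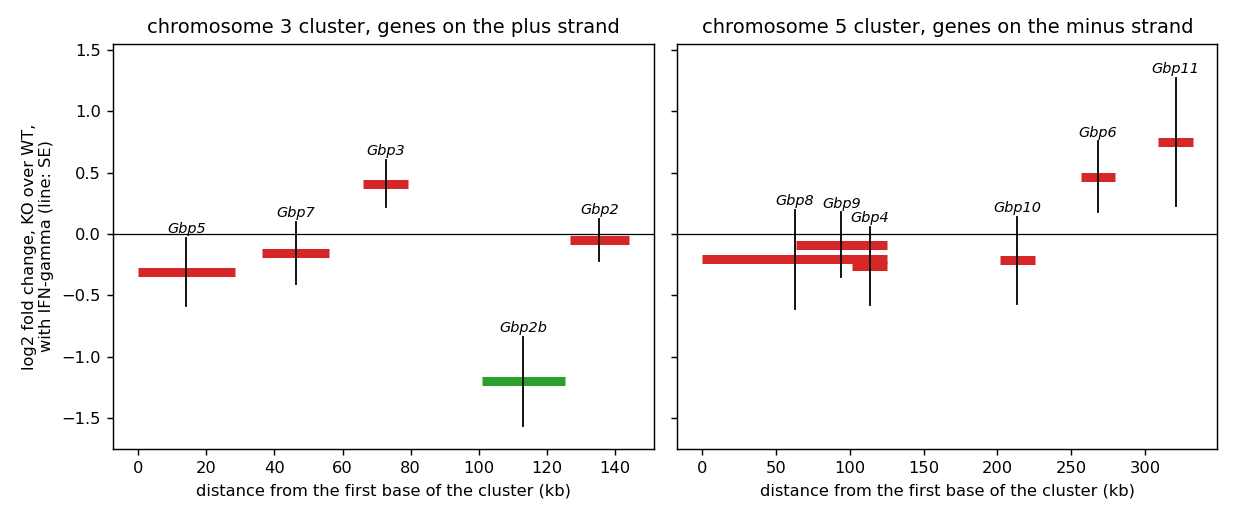
Log2 fold change of KO over WT with IFN-gamma (bar at each gene's span, line for the SE) along the chromosome 3 cluster, left, and the chromosome 5 cluster, right, by distance in kb from the first base. Gbp3, Gbp6 and Gbp11 lie above 0 (0.41, 0.47 and 0.75), the other 7 members between -0.31 and -0.05, and Gbp2b, in green, at -1.20.

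With IL-4, 0 of 10 members passed in KO against WT by limma, edgeR or DESeq2, where limma called 6.59% of all genes, and 2 members had an unadjusted p under 0.05. These were Gbp5, at 126 ± 53.8 in KO and 207 ± 81.9 in WT (-0.73 ± 0.28, adjusted p = 0.129), and Gbp6, at 106 ± 38.1 in KO and 66.3 ± 30.5 in WT (0.70 ± 0.29, adjusted p = 0.161). The libraries of KO and WT overlapped in all 10 members, where they did not in 20.1% of all genes tested. These 10 include Gbp10, which was at 0 in every library with IL-4 and so could show no difference. Single libraries moved these calls. Gbp5 passed as lower in KO without KO IL-4 replicate 3 (-1.02, adjusted p = 0.0398) or without WT IL-4 replicate 3 (-1.05, 0.0309). Gbp2 passed as higher without KO IL-4 replicate 1 (0.53, 0.048), and Gbp6 and Gbp11 did so without WT IL-4 replicate 1 (1.04, 0.0299 and 1.72, 0.0328).

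In untreated cells, 0 of 10 members passed in KO against WT by limma, edgeR or DESeq2, where limma called 1.98% of all genes. By limma 0 had an unadjusted p under 0.05. Gbp10 and Gbp11, with at most 3 reads in each untreated group, had too few reads to show a difference. Gbp4 alone had libraries that did not overlap (1 of 10, beside 30.1% of all genes tested), at 24.4, 19.9 and 33.5 in KO and 15.6, 19.8 and 19.1 in WT (0.47 ± 0.32, adjusted p = 0.664). Gbp2 averaged 377 ± 56.6 in KO and 472 ± 57.2 in WT (-0.33, 95% interval -0.68 to 0.03).

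**Figure D4:**
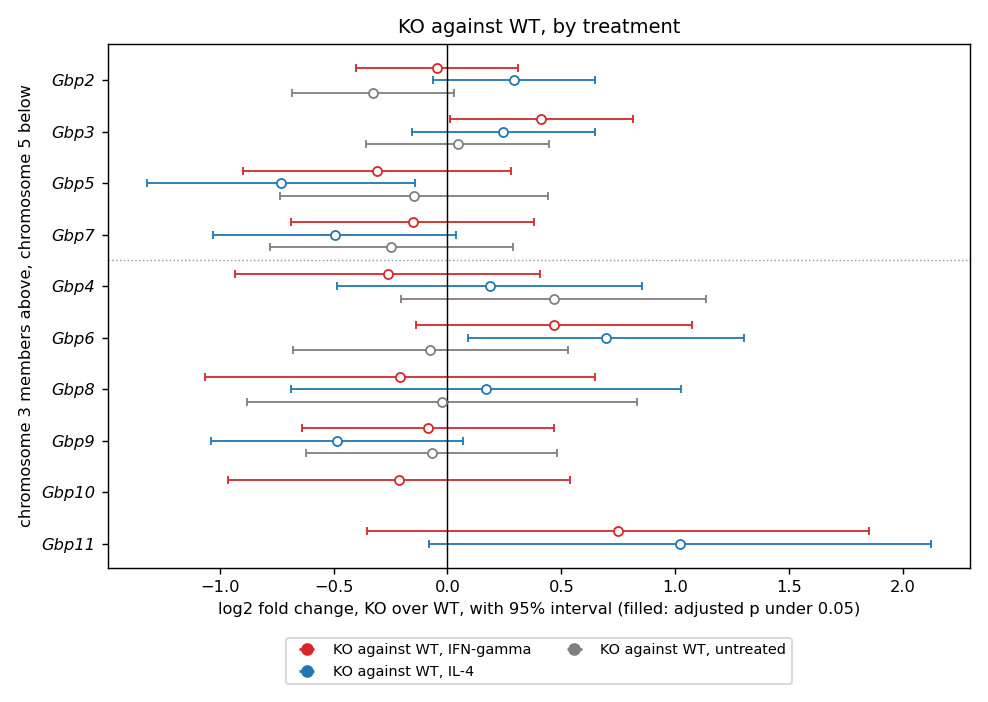
Log2 fold change of KO over WT for each Gbp gene with the 95% interval from limma, with IFN-gamma, with IL-4 and untreated; comparisons with at most 3 reads in every group are left out. All points are open (no adjusted p under 0.05), and the largest differences with IFN-gamma and IL-4 are those of Gbp11, at 0.75 and 1.02.

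Whether the responses themselves differed between genotypes was tested as an interaction. For IFN-gamma 0 of 10 members passed by limma, edgeR or DESeq2, where limma called 9.15% of all genes, and 0 had an unadjusted p under 0.05. Gbp4 had the largest difference, a response that was -0.73 ± 0.45 on the log2 scale in KO minus WT (adjusted p = 0.35); it passed with the KO and WT libraries of the 2 conditions alone (adjusted p = 0.0423). For IL-4 0 of 10 passed by limma, edgeR or DESeq2, where limma called 0.007% of all genes. Gbp10, with at most 3 reads in each group compared, had too few reads to show a difference. The only member with an unadjusted p under 0.05 was Gbp2 (0.62 ± 0.24, limma, adjusted p = 0.8).

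Spread between animals was uneven. With IFN-gamma the median SD of the members was 0.167 on the log2 scale in KO and 0.0939 in WT, beside 0.146 and 0.176 over all genes tested. With IL-4 it was 0.684 in KO and 0.413 in WT, beside 0.173 and 0.203, and untreated it was 0.354 in KO and 0.221 in WT, beside 0.0962 and 0.0985. All 10 members had far fewer counts without IFN-gamma than with it. One KO animal, replicate 1, gave the lowest KO library for 9 of 10 members with IFN-gamma, for 9 of the 9 detected with IL-4 and for 8 of 10 untreated, where the 8 include Gbp10, at 0 in both replicates 1 and 2. In WT with IL-4, replicate 1 was the highest for 7 of 9 members and replicate 3 the lowest for 6 of 9. How often these libraries were lowest or highest over all genes tested is not given here. The pattern can therefore not be told from a shift of whole libraries.

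**Figure D5:**
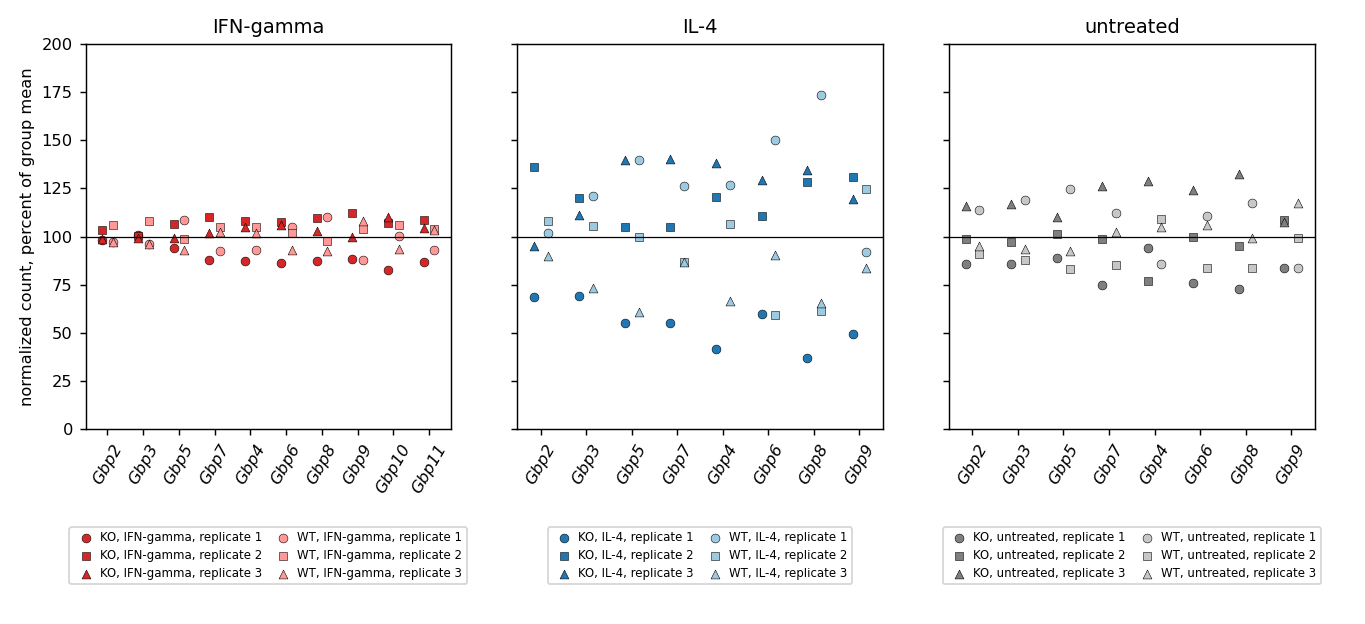
Normalized count of each library as a percent of its group mean, for IFN-gamma, IL-4 and untreated libraries; KO points stand left of WT points, symbols mark the replicate, and Gbp10 and Gbp11 are shown with IFN-gamma only. Libraries spread most with IL-4, where KO replicate 1 is the lowest KO library in every gene shown, and least with IFN-gamma.

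Other genes of the pathway were counted from lists of the upstream signal and of downstream partners. With IFN-gamma, 28.3% of all genes tested were called higher in KO and 31.4% in WT. Of 14 genes of IFN-gamma signalling, 13 were called higher and 1 lower with IFN-gamma in KO, and likewise 13 and 1 in WT. The lower one was Ifngr1, the ligand-binding chain of the receptor (-1.18 ± 0.08 in KO and -0.48 ± 0.08 in WT). Irf1, which binds ISRE, changed by 5.14 ± 0.11 in KO and 5.20 ± 0.11 in WT. In KO against WT with IFN-gamma, 0 of 14 were higher and 5 were lower, where 14.3% of all genes tested were called higher and 13.6% lower: Irf8 (-0.74), Ifngr1 (-0.87), Irf2 (-0.51), Ptpn2 (-0.41) and Irf1 (-0.30, adjusted p = 0.04999, limma). The median of the 14 was -0.12, beside 0.0088 over all genes tested.

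With IL-4, 9 of the 14 signalling genes were called higher in KO and 11 in WT, and 0 were lower. Of all genes tested, 15.8% were called higher in KO and 16.3% in WT, and 14.5% and 14% lower. Socs1, an inhibitor of JAK kinases, changed by 4.87 ± 0.20 in KO and 5.18 ± 0.20 in WT, Irf1 by 1.25 ± 0.11 and 1.33 ± 0.11, and Jak2 by 1.496 ± 0.111 and 1.271 ± 0.111.

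Among other interferon-inducible GTPases, some of which act beside GBPs at parasite vacuoles, 10 of the 11 listed were tested. With IFN-gamma all 10 were called higher in KO and in WT, where 28.3% and 31.4% of all genes tested were. Ifi47 was not tested, at 7.31 ± 2.92 normalized counts in KO and 6.95 ± 1.00 in WT with IFN-gamma. Overlap and shared sequence were not examined for the genes of this list, so a low count need not mean little transcript. With IL-4, 1 was called higher in KO (Gm12250, 0.70) and 2 in WT (Gm12250, 0.93, and Irgm1, 0.66). These counts are near the share of any gene, 15.8% in KO and 16.3% in WT. In KO against WT with IFN-gamma 1 of 10 was higher, Irgm1 (0.50 ± 0.15, adjusted p = 0.0233, limma), and 0 were lower. Beside 14.3% higher and 13.6% lower over all genes tested, this count is near the share of any gene.

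Of 11 inflammasome effectors, 0 were higher and 6 lower in KO against WT with IFN-gamma. Il18 stood at 188 ± 14.3 in KO and 785 ± 76.2 in WT (-2.05 ± 0.20), and Il1b at 2751 ± 1118 in KO and 23725 ± 15897 in WT (-3.00 ± 0.58). The sensors Nlrc4 (-0.89), Nlrp3 (-0.87) and Aim2 (-0.40) and the adaptor Pycard (-0.40) were also lower. Casp4, which GBPs help to activate on bacterial lipopolysaccharide, did not pass (0.17, adjusted p = 0.338), nor did Casp1 (-0.17, adjusted p = 0.177). Of 14 vacuole-targeting genes 2 were higher, Gabarapl1 (0.33) and Lgals3 (0.40), and 0 lower. Of 6 prenylation genes 0 were higher and 1 was lower, Pggt1b, a subunit of the enzyme that attaches a geranylgeranyl lipid (-0.37). Beside 14.3% higher and 13.6% lower over all genes tested, the counts of these last 2 lists are near the share of any gene.

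Across the 18 libraries the genes most like the mean standardised profile of the 10 members, among 10045 candidates with a mean count of at least 100, were Xaf1 (Pearson r = 0.997), Arid5a (0.997), Casp4 (0.996), Map4 (0.996) and Uba7 (0.996). These values describe the same 18 libraries in 3 treatments and carry no test. Xaf1 averaged 5472 counts in KO and 5768 in WT with IFN-gamma, 869 and 912 with IL-4, and 712 and 705 untreated. The members' own r with the profile ran from 0.961 for Gbp11 to 0.998 for Gbp7.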

How the data were processed

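Per the labels' protocols, RNA from bone marrow-derived macrophages was made into directional poly(A)-selected libraries. STAR 2.5, GRCm38 and HTSeq 0.6, besides DESeq2 and edgeR, are named in the submitters' processing notes; the sources used here state neither the versions of the last pair nor the strand and overlap settings of the counting. The deposited signal is normalized counts, read counts that the authors divided by 1 size factor per library, and whole reads were recovered for 100% of values (tolerance 0.1). The table holds 21428 rows; 34 identifiers that occur more than once hold identical values and were used once.

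The 14288 genes that reached a normalized count of 10 in 3 or more libraries were tested, among them all 10 members. Log2 of the normalized count plus 1 was fitted with limma 3.58.1 (trend, R 4.3.3) with 6 group means and 12 residual degrees of freedom; two-sided p-values were adjusted over all genes (Benjamini-Hochberg) and called under 0.05. A fold change on this scale understates the change of low genes. Levels per kilobase divide by exon bases of GENCODE M21. edgeR 4.0.16 and DESeq2 1.42.0 on recovered reads were alternatives. The script was tested on simulated data.

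The members, the gene lists and the rules for naming genes were chosen with earlier results of these data known. Named genes are the 10 members, Gbp2b, Ldha and Lyz2, up to 5 called genes of each list with the smallest adjusted p, any gene of a list near 0, and the 5 genes most like the family profile; Ifngr1 in the IFN-gamma response, and Pycard, Casp1 and Casp4 in KO against WT, were named after their values were seen. The same animal codes occur in every treatment, so animals pair the treatments; their deviations from group means correlated at r = 0.0036 to 0.243, 13 of 18 pairs above 0.1. Replicates are separate animals by these codes.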

Additional observations from a re-analysis of the deposited data

Results flagged for a closer look

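The IFN-gamma response of Gbp2b, the family's row outside the 10 members, differed between genotypes by the test of the difference itself. Gbp2b (ENSMUSG00000040264.10) lies between Gbp3 and Gbp2 at 142594847 to 142619179 on chromosome 3. It had 3286, 5491 and 4859 normalized counts in KO libraries with IFN-gamma and 8172, 11737 and 11114 in WT libraries with IFN-gamma. Untreated it had 2.72, 1.73 and 3.27 in KO and 2.92, 0 and 0.659 in WT. The KO minus WT difference of the response was -2.11 ± 0.51 on the log2 scale (limma, adjusted p = 0.0151). It was lost with edgeR (-2.34, adjusted p = 0.198), with DESeq2 (-2.42, 0.0516) and without KO IFN-gamma replicate 1 (-1.90, 0.0502). The untreated counts are 9 reads over the KO libraries and 4 over the WT libraries. KO against WT with IFN-gamma was -1.20 ± 0.36 (limma, adjusted p = 0.0199), and every KO library was below every WT library. This call held with edgeR (-1.19, adjusted p = 2.75e-05), with DESeq2 (-1.18, 1.75e-08) and with only the libraries of the contrast (0.00808). It was lost with a pseudocount of 0.5 (0.0612) and without KO IFN-gamma replicate 1 (-0.98, 0.0988). It was also lost without the WT libraries with IFN-gamma of replicate 2 (-1.10, 0.0659) or replicate 3 (-1.14, 0.0594). Of the 50-base words of Gbp2b, 1.84% occurred in another Gbp gene, mostly Gbp2.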

How the results depend on the processing

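Each count of members was recomputed under 29 alternatives, of which 18 left out 1 library each; an animal block as a random effect (consensus correlation 0.176) was chosen after seeing the data. All IFN-gamma response counts stayed at 10 of 10. KO against WT with IFN-gamma, 0 of 10 by the limma fit to all libraries, was 1 with quantile normalization (Gbp2 lower), 2 with edgeR (Gbp6 and Gbp11 higher) and 3 with only the libraries of the contrast (Gbp3, Gbp6 and Gbp11 higher). The interaction for IFN-gamma was 1 with only the libraries of the contrast (Gbp4). The share of all genes called under the alternatives is not given here, so counts under them stand without it. Leaving out single libraries gave 0 to 2 for KO against WT with IL-4, 4 to 6 for the IL-4 response in KO and 4 to 7 in WT, where the count of 7 (without untreated WT replicate 1) includes Gbp10 as lower, with at most 3 reads in each group. With only the libraries of the contrast the IL-4 response in WT counted 5, without Gbp6. With the animal as a replicate block the IL-4 response counted 6 in KO and 6 in WT, and with replicate numbers joined across KO and WT as a block, which pairs different animals (r = -0.212 to 0.104), KO against WT counted 0 in each treatment; Gbp7 with IL-4 in KO is the one member call the animal block changed. The cause of these changes was not tested. Of 2436 member values under alternatives, 24 had another call and 0 were reversed. Depth limits Gbp10 and Gbp11 without IFN-gamma, where groups hold 0 to 97 reads.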
